A study of Homo sapiens with 4 samples.

Results

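The gene described here is CD274, which encodes PD-L1, the ligand that T cells read through the inhibitory receptor PD-1. It was followed through its chromatin loops held by cohesin in GM12878, a line of B lymphoblasts immortalised with Epstein-Barr virus. Loops were mapped by HiChIP against SMC1, a subunit of the cohesin ring, so that each value is a count of ligated contacts between a pair of 5 kb bins and not a level of RNA or protein. APH cells were labelled as given 0.4 µM aphidicolin, an inhibitor of replicative DNA polymerases, for 18 h, with DMSO, the vehicle, as their control. HU cells were labelled as given 0.2 mM hydroxyurea, which lowers the supply of deoxynucleotides, for 18 h, with water (H2O) as their control. Each of the 4 groups holds 1 library of the same line, the sample titles name another lymphoblastoid line than the cell line field does, and no group has a replicate.

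CD274 lies on chromosome 9 at chr9:5450542-5470554 (build hg38, forward strand), and is 20 kb long. Its loops were chosen by position, as those with an anchor on the gene body (body loops) and those with an anchor on each side of it within 250 kb (bracketing loops). The gene itself was picked from its counts in APH against DMSO, where it stood among the 10 lowest places of the genome. The pick also required an APH over DMSO interval below 0 on the log2 scale and a smaller difference between H2O and DMSO. Every contrast that uses the APH counts of these loops, and H2O vs DMSO, is therefore given as a description. Nothing is supported with them. In all, 17 of 41846 listed pairs of bins met the rule, of which 11 were body loops and 6 bracketing loops. The APH list held 13 of them and the DMSO list 9, and the HU list held 9 and the H2O list 8. Only 3 of the 17 were listed in every library, 2 at the gene body and 1 bracketing it, against 9529 of the 41846 pairs as a whole. The lists hold called loops alone, with at least 12 counts, so a pair that is not listed in a library has no measured value there and is not a 0.

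PD-L1 on tumour cells, antigen-presenting cells and activated B cells restrains T cells that carry PD-1. Transcription of its gene is driven by interferon gamma through the kinases JAK1 and JAK2 and the factor IRF1, and by NF-kB, which Epstein-Barr virus latency proteins keep active in lymphoblastoid lines. PDCD1LG2, the gene of the other PD-1 ligand, PD-L2, follows CD274 on the same chromosome. The long non-coding RNA gene INCR1, known as interferon-stimulated in human cells, overlaps both. Cohesin extrudes chromatin until it meets a barrier, most often CTCF, and so brings promoters near distant elements.

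The start of CD274 lies 541 bases into the bin chr9:5450001-5455000, which carried 5 of the 11 body loops, as many as the next bin. The promoter window from RefSeq (GRCh38.p14, forward strand, chr9:5450292-5450591, 250 bases before the gene start and 50 after) lies wholly within that bin and is shown because both body loops listed in every library end there. Capitals mark matches to motifs searched on both strands.

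CD274 promoter: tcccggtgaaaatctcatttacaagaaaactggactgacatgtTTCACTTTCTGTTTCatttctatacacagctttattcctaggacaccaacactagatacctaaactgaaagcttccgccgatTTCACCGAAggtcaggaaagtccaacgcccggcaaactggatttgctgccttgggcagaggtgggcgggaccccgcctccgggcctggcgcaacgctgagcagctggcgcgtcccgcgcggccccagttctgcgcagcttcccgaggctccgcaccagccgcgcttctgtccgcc

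The first run of capitals holds 2 matches to the interferon response core GAAANNGAA, both on the reverse strand and overlapping each other, at chr9:5450335-5450343 and chr9:5450341-5450349. Factors of the IRF family are known to bind such letters. Of 35116 promoter windows of the same length, 8.11% hold this core. The second run is a match to the STAT site TTCNNNGAA at chr9:5450417-5450425, a motif that 7.66% of the windows hold. The letters GGGNNTTCC (an NF-kB core, in 6.58% of windows), TGANTCA (AP-1, 7.71%), CACGTG (E-box, 7.26%) and AGGGGGC (a CTCF core, 14.4%) do not occur in this window. The 150 bases nearer the gene were 74% G or C, and the 150 bases farther away 40.7%. A match is only a match of letters, and binding was not measured.

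Every one of the 11 body loops ran downstream from CD274, and the number that ran upstream was 0 in each library. None of their far anchors lay on a protein-coding gene. In 2 of the 11 loops the far anchor was the bin chr9:5490001-5495000, between CD274 and PDCD1LG2. The other 9 ended in the 4 bins of chr9:5575001-5595000, just past the end of PDCD1LG2 at 5571282. All these far anchors lie within INCR1. The bracketing loops ended in the same distal bins and spanned 135 to 155 kb, so the stretch just before CD274 contacted the same place as the gene. Among the bracketing loops, 2 started in the bin chr9:5435001-5440000, which holds an end of PLGRKT, a plasminogen receptor gene.

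**Figure D1:**
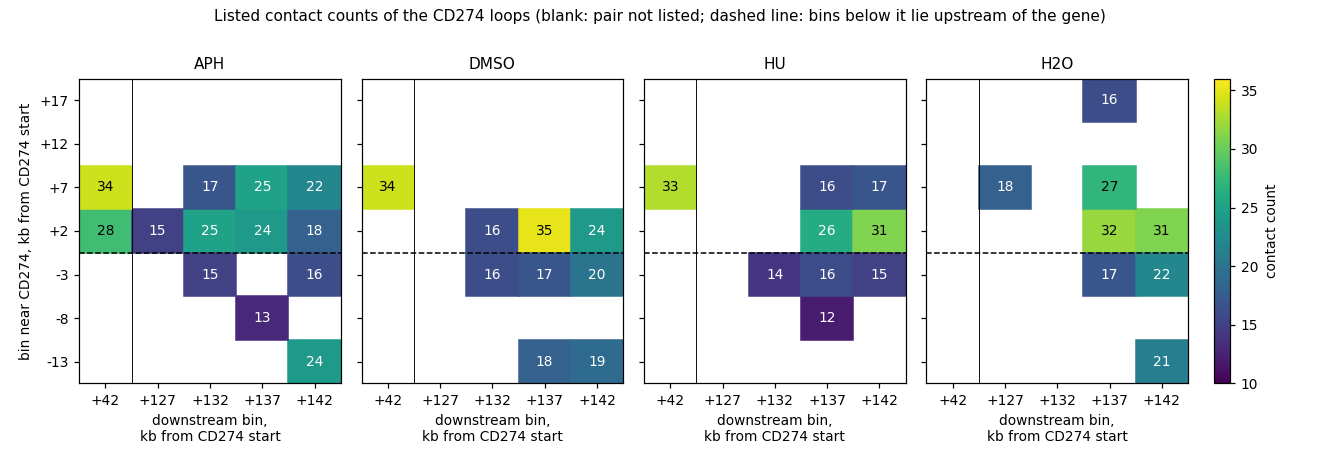
Contact counts of the 17 pairs of bins, as listed, in 4 panels for APH, DMSO, HU and H2O. Each row is a bin near CD274 and each column a downstream bin, both given as the distance of the bin centre from the gene start in kb, colour and printed number give the count, and blank cells were not listed. The highest count among the distal columns is 25 in APH, shared by 2 pairs, against 35 in 1 pair in DMSO.

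The pair of 135 kb from the gene-start bin to chr9:5585001-5590000 was listed in every library. It had 24 counts in APH against 35 in DMSO, and 26 in HU against 32 in H2O. DMSO was the highest and APH the lowest of the 4. In the APH library it exceeded the expected count given by the loop caller 3.81-fold, against 7.57-fold in DMSO. The HU value was 5.36-fold, against 6.65-fold in H2O. Within the lists, 61.0% of APH loops had fewer counts than this pair and 82.6% of DMSO loops did.

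The pair of 140 kb from the gene-start bin to chr9:5590001-5595000 was also listed throughout. It had 18 counts in APH against 24 in DMSO, and 31 in HU against 31 in H2O. APH was again lowest, while HU and H2O were highest and equal. The bracketing loop of 145 kb, from chr9:5445001-5450000 to the same distal bin, had 16 counts in APH against 20 in DMSO, and 15 in HU against 22 in H2O. Here both drug libraries were below both vehicles, by at most 7 counts.

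Libraries differ in depth, so each count was divided by the total of its library over the 9529 pairs that every library listed, and given as counts per 1000000 of that total. On this scale the 2 body loops together stood at 111 in APH (95% exact Poisson interval 80.3 to 151) and 196 in DMSO (150 to 253). They stood at 177 in HU (134 to 229) and 193 in H2O (149 to 248). The underlying sums were 42 counts in APH against 59 in DMSO, and 57 in HU against 63 in H2O. In order from low to high the libraries ran APH, HU, H2O, DMSO. APH over HU was -0.67 on the log2 scale (95% exact interval -1.28 to -0.07), a value that reuses the APH counts the gene was picked on. Neither of the other neighbours in this order differed beyond counting error, as HU over H2O was -0.13 (-0.67 to 0.41) and H2O over DMSO -0.02 (-0.56 to 0.52). The pick of the gene also favoured a small H2O over DMSO value. All these intervals cover counting error only, and since the reads carry no molecular identifiers, copies of 1 molecule may have been counted more than once.

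**Figure D2:**
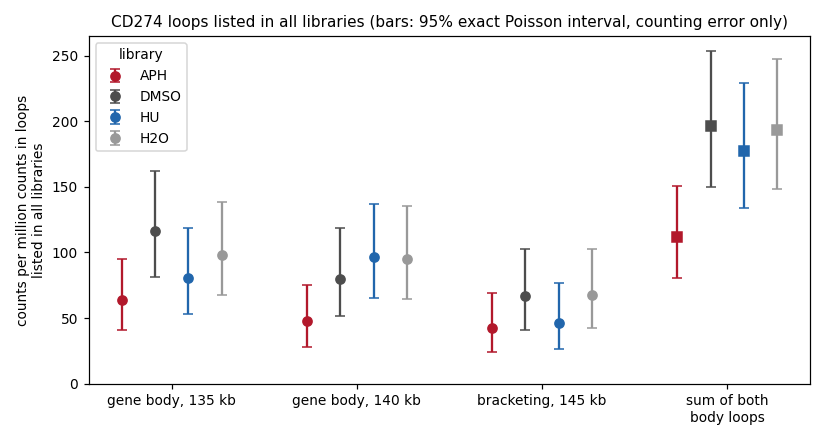
Depth-scaled counts for the 3 pairs that every library listed and for the sum of the 2 body loops, with one point per library and 95% exact Poisson intervals that cover counting error only. The y axis gives counts per 1000000, relative to the total over pairs that every library listed. For the sum, APH stands at 111 and the other 3 libraries between 177 and 196.

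APH over DMSO was -0.82 on the log2 scale for the 2 body loops together (-1.42 to -0.22), that is 0.567-fold. The pair of 135 kb gave -0.87 (-1.69 to -0.08) and the pair of 140 kb -0.74 (-1.71 to 0.20). Both loops were lower, and the interval of the second included equality. Of 2520 protein-coding genes with at least 100 counts in APH and DMSO together, 1.19% were at least 1.5-fold lower and 1.55% at least 1.5-fold higher. CD274, at 101 counts together, only just reached that minimum, and 5 genes stood lower. The tenth place from the bottom, the last inside the choice that picked the gene, stood at -0.78, and the next at -0.76. Against H2O in place of DMSO, APH was -0.80 (-1.40 to -0.21). Among the loops listed in all 4 libraries, 2.00% and 3.56% lay lower in APH against DMSO than the pairs of 135 and 140 kb.

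**Figure D3:**
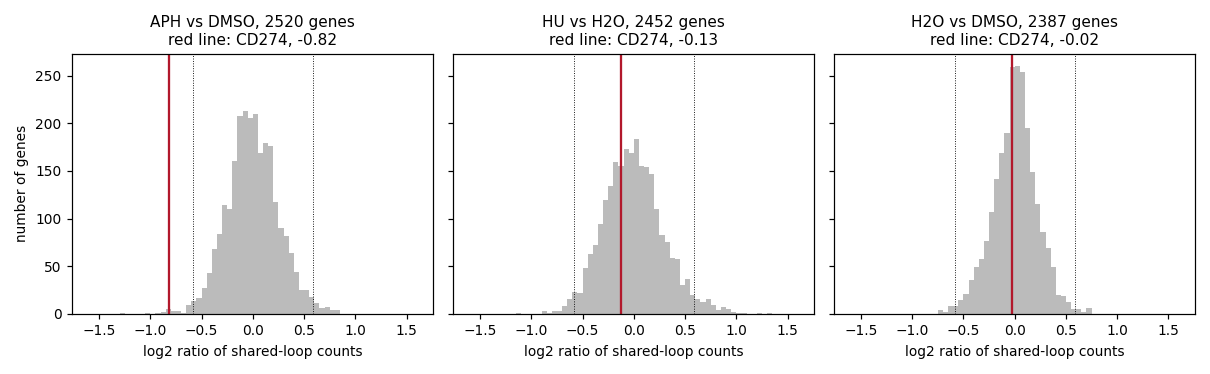
Histograms of the log2 ratio of counts in loops listed in all libraries, over protein-coding genes that reach 100 counts in the pair of libraries compared, for APH vs DMSO, HU vs H2O and H2O vs DMSO. The red line marks CD274, at -0.82, -0.13 and -0.02, and dotted lines mark 1.5-fold.

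HU did not show that size of difference from H2O. The pair of 135 kb stood at -0.28 (-1.09 to 0.51) and the pair of 140 kb at 0.02 (-0.75 to 0.78), so the loops differed in sign. Together they lay at 0.915-fold, short of 1.5-fold, and 34.1% of 2452 genes stood lower. Over these genes 1.63% were at least 1.5-fold lower in HU than in H2O and 3.18% at least 1.5-fold higher. Between the vehicles, 42.0% of 2387 genes stood lower than CD274 in H2O against DMSO, where 0.67% of genes were at least 1.5-fold lower and 0.712% higher. The pick of the gene required this vehicle difference to be smaller than that of APH against DMSO. Whether the APH and HU differences from their vehicles differ from each other was not tested, as there are no replicates.

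The single bracketing loop listed throughout gave -0.65 in APH vs DMSO (-1.70 to 0.37) and -0.54 in HU vs H2O (-1.59 to 0.48). It was at 0.02 in H2O vs DMSO (-0.92 to 0.97). With 15 to 22 counts a library, differences of this size were not detectable at this depth.

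Summed over all listed body loops, the 2 shared pairs included, the order of the libraries was another. APH listed 9 body loops with 208 counts, against 4 with 109 counts in DMSO. HU listed 5 with 123 counts, against 5 with 124 counts in H2O. The APH loops were spread over 35 kb of anchor bins with a mean of 23.1 counts a loop, and the DMSO loops over 30 kb with a mean of 27.2. As counts per 1000000 of all listed counts, these sums were 284 in APH against 242 in DMSO, and 223 in HU against 215 in H2O. The sum thus stood higher in APH than in DMSO, the opposite order to the shared pairs, with a log2 ratio of 0.23 (-0.11 to 0.58). Such sums depend on the length of the list, and the APH list is 27395 loops long against 17660 for DMSO.

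The next bin of the gene, chr9:5455001-5460000, held the largest part of this difference. From this bin to the distal bins APH listed 3 loops with 25, 22 and 17 counts, while DMSO listed 0. HU listed 2 there, with 16 and 17 counts, and H2O listed 2, with 27 and 18. The gene-start bin itself carried 4 distal loops with 82 counts in APH against 3 with 75 in DMSO, and 2 with 57 in HU against 2 with 63 in H2O. In APH the most heavily counted distal pairs, at 25 counts, were therefore neither of the pairs listed in all libraries: one ran from the gene-start bin to chr9:5580001-5585000, where DMSO had 16, and one from the next bin to chr9:5585001-5590000. For loops with an expected count of 5 to 6, the lowest count in any of the 4 lists was 14, which describes the lists and does not bound a pair that is missing from one.

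When pairs whose anchors differ by at most 1 bin were joined before comparison, the body contacts with the distal bins came to 146 counts in APH against 75 in DMSO, from 7 and 3 loops. The log2 ratio of these sums was 0.49 (0.08 to 0.91). By the same rule HU had 90 counts and H2O 108, each from 4 loops, and H2O over DMSO was 0.31 (-0.12 to 0.76). The sums cover different numbers of called loops, and a pair that DMSO did not list adds nothing to its sum although its count is unknown. Such ratios describe the lists and do not measure a change of contact. With the most heavily counted pair of that group in place of the sum, 25 in APH against 35 in DMSO, APH over DMSO was again -0.82 (-1.62 to -0.04). Over the 4 body pairs listed in both APH and DMSO, with 101 counts against 109, it was -0.42 (-0.82 to -0.01), below the 1.5-fold limit. APH was thus lower in the pairs listed everywhere, and its highest count of a distal pair was below that of DMSO. Those highest counts belong to different pairs in APH and in DMSO. The sums over neighbouring pairs, which rest on unequal lists, stood the other way. The pairs listed everywhere are a selected set too. A pair enters it only if all 4 lists hold it, and the DMSO list is the shortest. Pairs that DMSO lacks are left out, whatever their count in APH. The pair of 130 kb from the gene-start bin to chr9:5580001-5585000, which HU and H2O did not list, is left out as well. That pair had 25 counts in APH against 16 in DMSO, at 0.32 (-0.65 to 1.32). Neither choice of pairs therefore measures the contact as a whole.

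**Figure D4:**
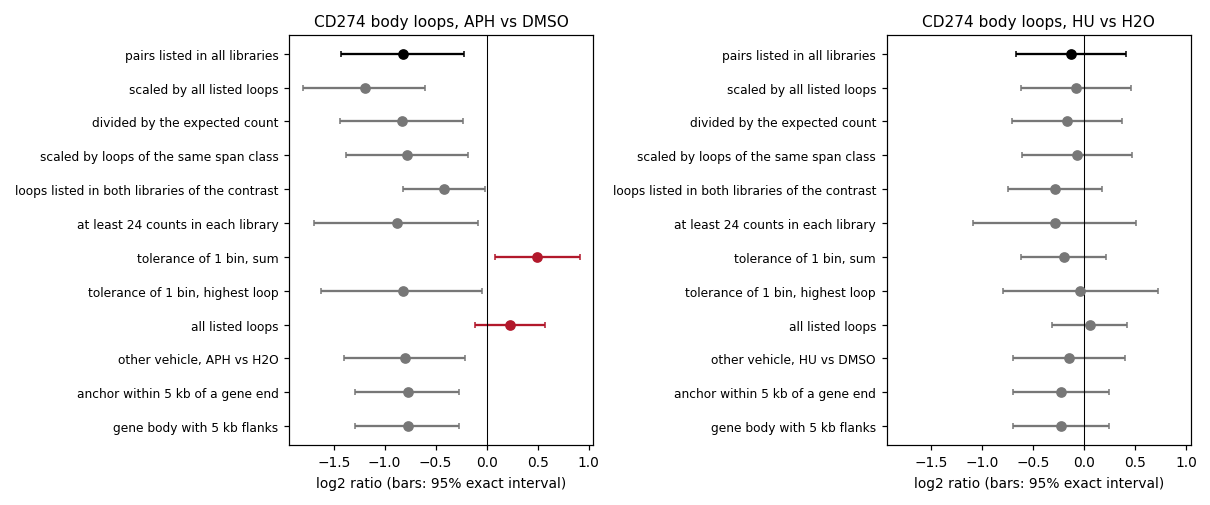
Log2 ratios of the CD274 body loops under each way of choosing and scaling loops, for APH vs DMSO on the left and HU vs H2O on the right, with 95% exact intervals. Red points have the opposite sign and are sums over unequal numbers of called loops: in APH vs DMSO the sum with a tolerance of 1 bin is at 0.49 and the sum of all listed loops at 0.23, against -0.82 for pairs listed in all libraries.

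The block of 7 bins around CD274 by 4 distal bins, 28 pairs in all, covered the same contact, but only through its listed pairs. APH listed 11 of the 28 pairs and each of the other 3 libraries 8. Bins upstream of the gene held 31.8% of the block's counts in APH (95% exact binomial interval 25.6 to 38.5) and 54.5% in DMSO (46.6 to 62.3). They held 38.8% in HU (30.9 to 47.2) and 32.6% in H2O (25.9 to 39.9). The share was highest in DMSO. The interval of H2O, the other vehicle, lies below that of DMSO, as does that of APH. The intervals of HU and DMSO overlap. This share covers listed pairs only, and DMSO listed no pair from the second body bin to the distal bins. The count-weighted centre of the near anchors lay 0.44 kb past the gene start in APH and -3.01 kb from it in DMSO, and at 0.73 kb in HU and 1.71 kb in H2O. The leading pair of each library, tied in APH, was not the same pair throughout. It held 11.7% of the block's counts in APH against 21.2% in DMSO, and 21.1% in HU against 17.4% in H2O.

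**Figure D5:**
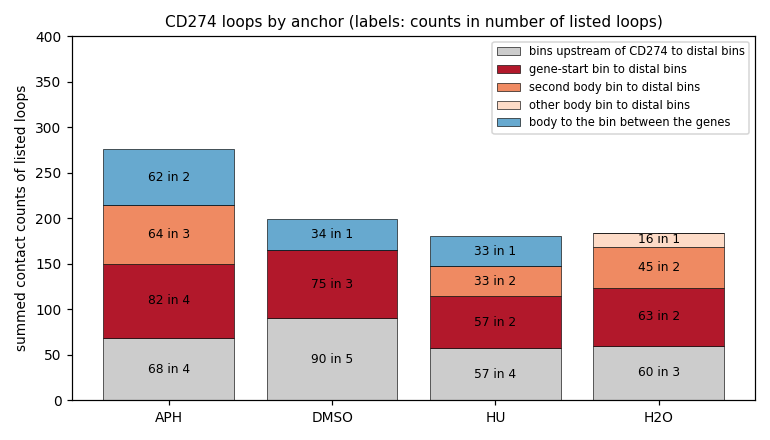
Summed contact counts of the listed CD274 loops in each library, stacked by the bins they join, with the number of loops printed in each part. The y axis is counts as listed, not scaled. The part from the second body bin to the distal bins is 64 in APH and missing in DMSO, 33 in HU and 45 in H2O. Bins upstream of CD274 hold 68 in APH and 90 in DMSO, 57 in HU and 60 in H2O.

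The contact of the gene with the bin between CD274 and PDCD1LG2 had similar unscaled counts in the libraries that listed it. From chr9:5455001-5460000 to chr9:5490001-5495000, over 35 kb, it had 34 counts in APH against 34 in DMSO, and 33 in HU, while H2O did not list it. Scaled for depth, this pair stood at 90.2 in APH, 113 in DMSO and 102 in HU. APH over DMSO was -0.33 (-1.06 to 0.40) on the log2 scale. APH alone listed a second such pair, from the gene-start bin, with 28 counts. At the edges of the rule, the bin that ends 542 bases before the gene start carried 31 counts in 2 loops in APH against 53 in 3 in DMSO, and 45 in 3 in HU against 39 in 2 in H2O. Just past the gene's last bin, chr9:5475001-5480000 carried 1 loop of 12 counts in APH and 1 of 21 in DMSO. Widening the bracketing window to 500 kb added no shared loop.

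Among the neighbours within 250 kb, INSL4, RLN2 and RLN1, genes of relaxin family hormones, carried no listed loop in any library. PDCD1LG2 carried 3 listed loops with 60 counts in APH against 3 with 91 in DMSO, and 2 with 90 in HU against 5 with 110 in H2O, and no pair was listed in all 4. From the bin between the genes to the distal bins past PDCD1LG2, APH listed 4 loops with 85 counts against 3 with 55 in DMSO. HU listed 0 there, against 3 with 88 counts in H2O. PLGRKT carried 1 loop in APH against 2 in DMSO, and 0 in HU against 1 in H2O, and RIC1 carried 1 in DMSO and in H2O and 0 in both drug libraries. JAK2, the interferon receptor kinase gene farther upstream in the same region, had 2 loops listed throughout. It had 59 counts in APH against 56 in DMSO, at -0.25 (-0.81 to 0.30), and 44 in HU against 69 in H2O, at -0.63 (-1.21 to -0.07).

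Genes of the PD-1 axis and of its regulation were set beside CD274. Of 8 PD-1 ligands, receptors and relatives, CD274 and CD86 had loops listed in all libraries. CD86, a costimulatory ligand of B cells, had 170 counts in APH against 128 in DMSO, at 0.08 (-0.26 to 0.42), and 129 in HU against 140 in H2O, at -0.10 (-0.46 to 0.25). PDCD1, CTLA4 and CD28, which act in T cells, carried no listed loop.

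Of 15 genes of interferon gamma signalling, 9 had shared loops, and 6 of these reached 100 counts in APH and DMSO. The number of the 6 at least 1.5-fold lower or higher was 0, where 1.19% and 1.55% of all genes tested were, so a count of 0 does not set them apart. Their median log2 ratio was -0.17, against -0.01 over all 2520 genes. Over the 9, the lowest in APH vs DMSO was IFNGR1, a chain of the interferon gamma receptor, at -0.36 with 43 counts in APH against 44 in DMSO. The highest was JAK1 at 0.45 (-0.56 to 1.51), with 24 counts against 14. H2O had 28 counts there, and H2O over DMSO was itself 0.88. JAK1 was also the lowest of the 9 in HU vs H2O, at -0.79 (-1.78 to 0.14), with 16 counts against 28. In HU vs H2O, JAK2 was 1 of 5 with enough counts and the only one past 1.5-fold, beside 1.63% of all genes tested that were lower by as much. STAT3 had the most counts of the list, 580 in APH against 486 in DMSO (-0.07) and 414 in HU against 488 in H2O (-0.22). IRF9 carried no listed loop.

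Other regulators of PD-L1 level had shared loops at 4 of 16 genes, from RELB, an NF-kB subunit gene, at -0.60 (-1.56 to 0.34) to STAT5A at 0.02 (-0.51 to 0.56) in APH vs DMSO. Of the 2 with 100 counts, JUNB and STAT5A, neither was past 1.5-fold in APH vs DMSO, beside 1.19% of all genes lower and 1.55% higher. JUNB, an AP-1 subunit gene, had 122 counts in HU against 90 in H2O, at 0.45 (0.05 to 0.86), but H2O was itself -0.47 from DMSO. Of 15 further checkpoint and costimulatory genes, 7 had shared loops. VSIR, which encodes the checkpoint protein VISTA, was the 1 of 3 with enough counts past 1.5-fold in APH vs DMSO, with 98 against 50 counts and a log2 ratio of 0.64 (0.14 to 1.16). Over all genes tested, 1.55% were higher by as much, and 1 gene of 3 is too few to set against that share. H2O over DMSO was 0.54 there, with 79 against 50 counts. TNFSF4, the gene of the OX40 ligand, was at -0.31 (-0.65 to 0.03) in APH vs DMSO and -0.44 (-0.78 to -0.10) in HU vs H2O. The lowest of these 7 in APH vs DMSO was CD70 at -0.39, and in HU vs H2O the highest was CD276 at 0.33.

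The genes most like CD274 over the 4 libraries were sought by the Euclidean distance between centred log2 scaled counts, among 3833 genes with at least 100 counts in all that share no loop with it. They were TRIM5 with its neighbours TRIM6 and TRIM6-TRIM34 (distance 0.071), TK1 with TMC6 (0.105), KLHL5 with FAM114A1 (0.161), SDR42E2 (0.167) and USP35 (0.178). TK1, which encodes a thymidine kinase, had 65 counts in APH against 86 in DMSO, and 85 in HU against 101 in H2O. TRIM5, an antiviral restriction factor gene, had 20 in APH against 27 in DMSO and 26 in HU against 28 in H2O. Likeness over 4 libraries, with 1 or 2 loops a gene, is a description only.

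The labelled cell type was checked by loops alone, since no RNA was measured. Of 13 B cell genes, 8 had a listed loop in every library, against 1 of 6 T cell genes (CD3G) and 1 of 6 myeloid genes (S100A8). The B cell genes CD79B and EBI3 carried none in any library. With a loop in any library, the numbers were 11 of 13, 4 of 6 and 5 of 6. A pair listed in all libraries was carried by 7, 1 and 0 of them, beside 4831 of 19974 protein-coding genes. The share of all genes with a listed loop in every library is not given, so these numbers do not settle the cell type. The B cell genes together carried 63 listed loops in APH against 46 in DMSO, and 46 in HU against 56 in H2O, while the myeloid genes carried 13 in APH against 2 in DMSO, and 6 in HU against 5 in H2O. Their part in the results was not tested. Total counts over the shared pairs were 376948 in APH against 300320 in DMSO, and 322048 in HU against 325634 in H2O. The full read depth is unknown, because unlisted pairs are not given.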

How the data were processed

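SMC1 HiChIP loops were analysed in 4 libraries, 1 per treatment, grouped by the treatment in the labels. Per the submitters' processing notes, bcl2fastq 2.17, MACS3 3.0.1 and build hg38 were used. Aligner and loop caller were not given in the sources used here. Contact counts, as deposited, are whole numbers per pair of 5 kb bins, not normalized. The deposited signal taken as the caller's expected count was exceeded at least 2-fold by every loop, and the deposited column taken as an adjusted p-value was below 0.01. The lists have no header, so columns were read from their values. The deposited cluster score was not used.

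Pairs were matched by identical bins, and each library was scaled by its total over the 9529 pairs listed in all 4, without a pseudocount. Genes are the 19974 protein-coding genes of RefSeq (GRCh38.p14) on chromosomes 1 to 22 and X. A loop counts for a gene when an anchor overlaps its body. Called means at least 1.5-fold, and only genes reaching 100 counts over both libraries were ranked. Intervals are 95% exact conditional binomial (ratios), Poisson (levels) or Clopper-Pearson (shares), and no p-value was computed. The ratio step was tested on simulated data. Named genes were CD274, its neighbours within 250 kb with JAK2, the highest, lowest and called members of 4 lists and the 5 genes of most similar pattern, and STAT3 was named after their values were seen. The gene, its loops and the lists were chosen with earlier results of these data known. Python 3.11.15, numpy 2.4.6, pandas 2.3.3, scipy 1.17.1 and matplotlib 3.10.9 were used.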

Additional observations from a re-analysis of the deposited data

How the results depend on the processing

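For the CD274 body loops, APH vs DMSO was below 0 in 9 of 11 alternatives, at -1.20 to -0.42. Scaling by all listed loops gave the lowest value. Pairs listed in both libraries gave the highest, short of 1.5-fold. Several of the 9 reuse the 42 APH counts of the same 2 pairs under another scale or vehicle. An anchor within 5 kb of a gene end and a body with 5 kb flanks gave the same counts, 58 in APH against 79 in DMSO. The 9 are therefore not independent, and they describe a contrast on which the gene was picked. APH vs DMSO turned to 0.49 when pairs within 1 bin were joined and summed (7 loops in APH, 3 in DMSO), and to 0.23 over all listed loops (9 and 4). Both are ratios of sums over unequal numbers of called loops, with unlisted pairs adding nothing, and do not show a reversed contact level. Pairs listed in all libraries leave out any pair that 1 list lacks, so they do not give the full contact level either. The highest pair within 1 bin, not the same pair in APH as in DMSO, gave -0.82. The rule of all listed loops and that of the highest pair within 1 bin were added after seeing the data. HU vs H2O ranged from -0.29 to 0.05 and H2O vs DMSO from -0.26 to 0.31. For the bracketing loops, APH vs DMSO ranged from -1.03 to -0.31 and HU vs H2O from -0.54 to -0.01, and H2O vs DMSO from -0.80 to 0.06. With pairs within 1 bin joined and summed, the bracketing loops stood at -0.87 in APH vs DMSO and -0.80 in H2O vs DMSO. The sums were 68 counts from 4 loops in APH, 90 from 5 in DMSO and 60 from 3 in H2O. They too cover unequal numbers of called loops and do not show a changed contact level. No bracketing loop had at least 24 counts in each library or both anchors within 100 kb, so these alternatives gave no value. No paired analysis was possible because each group has 1 library. With 42 to 63 counts over 2 body loops, depth limits every ratio here.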

Other observations

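The sign over shared pairs was set beside that over all listed loops for the genes called lower in each contrast, and for no other genes. In APH vs DMSO, of 30 genes at least 1.5-fold lower over pairs listed in all libraries, 3 had a ratio above 0 over all their listed loops, and they are named here after their values were seen. CD274 was at -0.82 over shared pairs and 0.23 over all listed loops. SPTBN1, a spectrin gene, was at -0.62 and 0.11, with 210 listed counts in APH against 119 in DMSO. ZFHX3 was at -0.89 and 0.0047, with 121 counts in APH against 74 in DMSO. The listed sums cover unequal numbers of called loops. In HU vs H2O, 3 of 40 such genes did so, namely RPS6KA5, CUEDC1 and ATG7, and in H2O vs DMSO 1 of 16, RNF157.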
